A study of Homo sapiens with 6 samples.

Results

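The 6 genes studied write, guide or copy cytosine methylation in human DNA, and their transcripts were followed in H9 cells: the DNA methyltransferases DNMT1, DNMT3A and DNMT3B, their catalytically inactive partner DNMT3L, and the paralogs UHRF1 and UHRF2. They were taken by symbol from the deposited gene count table, which holds 53719 rows. All 6 members had a row, and all 6 passed the low-count filter, which kept 19721 genes. H9 is an established human embryonic stem cell line, grown here in RSeT, a medium sold for naive-like culture. Both groups were transfected with a gapmer, an antisense oligonucleotide that directs RNase H to the RNA it pairs with, and RNA was taken 48 h later. In the knockdown group (3 libraries titled Sense3, a to c) it was directed against ALR, the usual repeat-catalogue name of the alpha satellite of centromeres, which the labels do not spell out, and in the control group (3 libraries, a to c) it was a control gapmer. No label says that the 3 libraries of a group came from separate cultures, so the p-values measure the spread between these libraries, which may be technical. The repeat RNA itself was not analysed here, so the depth of the knockdown is not shown. Values of single libraries are given in the order a, b, c throughout. In bulk RNA, fewer cells of a type and less RNA per cell cannot be told apart.

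DNA methylation in mammals is kept by a division of labour. DNMT1 copies the methyl mark onto the new strand after replication, and it is brought to hemimethylated sites by UHRF1, which reads those sites and ubiquitinates histone H3. UHRF2 shares the domain plan of UHRF1 but does not replace it in maintenance. DNMT3A and DNMT3B set methyl marks on unmethylated DNA, and DNMT3L stimulates them without being an active enzyme. In human pluripotent cells DNMT3B is the most abundant of the family, DNMT3L is a known marker of the naive state, and naive cells are known for low global methylation. Alpha satellite repeats, the source of the targeted RNA if ALR has its usual meaning, are among the densely methylated parts of the genome.

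Total counts were 25087629 to 33698831 in the knockdown libraries and 28834926 to 36576752 in the control libraries. In rows with a count, knockdown library a stands apart: it had 29678, against 25898 to 26788 for the remaining 5. Markers of pluripotency were high, led by LIN28A (1757 ± 141 CPM under knockdown, 1541 ± 18.2 CPM under control; SD, n = 3 each), L1TD1 and DPPA4, while SOX2 was at 0. CPM, the count of a gene scaled to a common library total, rest here on library sizes adjusted by TMM, a method that sets the bulk of genes equal between libraries. Of the naive markers, ZFP42, TFAP2C and TFCP2L1 led, but KLF17, the defining marker (named after its values were seen), lay between 0.0275 and 0.353 CPM and KHDC1L was at 0. The summed level of 16 naive markers was 253 to 269 CPM in knockdown and 254 to 263 CPM in control libraries. The naive label is thus not borne out by KLF17, and the cells are called by their medium here. Summed markers of fibroblasts were 89.9 to 99.4 CPM in knockdown and 92.9 to 107 CPM in control libraries, led by COL1A2, COL1A1 and TWIST1, while LUM, named after its values were seen, was at 0.0396 CPM or less. Summed trophectoderm markers were 15.8 to 18.2 and 19.5 to 20.04 CPM, led by ENPEP, GATA2 and TFAP2A. ENPEP made up most of these sums, with 14.7 ± 1.35 CPM under knockdown and 17.1 ± 0.502 CPM under control. GATA2 (means 0.774 and 0.696 CPM) and TFAP2A (0.521 and 0.446 CPM) were near the floor and not lower under knockdown. Of the 5 trophectoderm markers tested, 2 lay above 0 and 3 below, with 0 calls. Of the 10 germ layer markers, summed at 369 to 418 and 314 to 369 CPM, NES led with 369 ± 26.4 and 320 ± 28.4 CPM, followed by MIXL1 and PAX6. The part of these cell types in the members' values was not tested.

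How reads over introns and over overlapping genes were counted is not given in the sources used here, and the table bears on it. SOX2, a core pluripotency factor that lies wholly inside the span of SOX2-OT, had 0 counts in every library. Of 637 coding genes that lie wholly inside the spans of other genes of the table (RefSeq spans, GRCh38.p14), 480 (75.4%) had no count in any library, compared with 8.15% of the 13083 coding genes that overlap none. A row may therefore lack reads from shared stretches, and it may hold intronic reads. Among the members, ARRDC5 covers 23.3% of the span of UHRF1 in RefSeq, but the pair do not overlap in GENCODE 29. In GENCODE 29, S1PR2 shares 83 of the 9796 exon bases of DNMT1, and AP001059.1, a gene on the opposite strand that has no row in the count table, shares 241 of the 1859 exon bases of DNMT3L. The library kit keeps strand, but whether the counting used it is not given in the sources used here.

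None of the 6 members passed a Benjamini-Hochberg adjusted p of 0.05 over all genes in edgeR's quasi-likelihood test (glmQLFTest), which called 155 of the 19721 genes (0.786%). At an unadjusted p under 0.05 there were 4 members, DNMT3A, DNMT3L, UHRF1 and UHRF2, where 14.3% of all genes tested had such a p. The values of the 2 groups did not overlap in any of the 6 members, whereas this held for 18.9% of all genes tested. DNMT1, DNMT3A, DNMT3B and UHRF1 lay higher in every knockdown library than in any control library, and DNMT3L and UHRF2 lay lower. The median log2 fold change of the 6 was 0.13, beside 0.02 over all genes tested. Without knockdown library a, which stands apart in rows with a count, none of the 6 passed the threshold. The log2 fold changes were then 0.17 for DNMT1, 0.20 for DNMT3A, 0.13 for DNMT3B, -0.74 for DNMT3L, 0.26 for UHRF1 and -0.27 for UHRF2. Without knockdown library c, UHRF2 passed (edgeR adjusted p = 0.0290). These counts describe the members only, since the genes were chosen with earlier results of these data known.

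**Figure D1:**
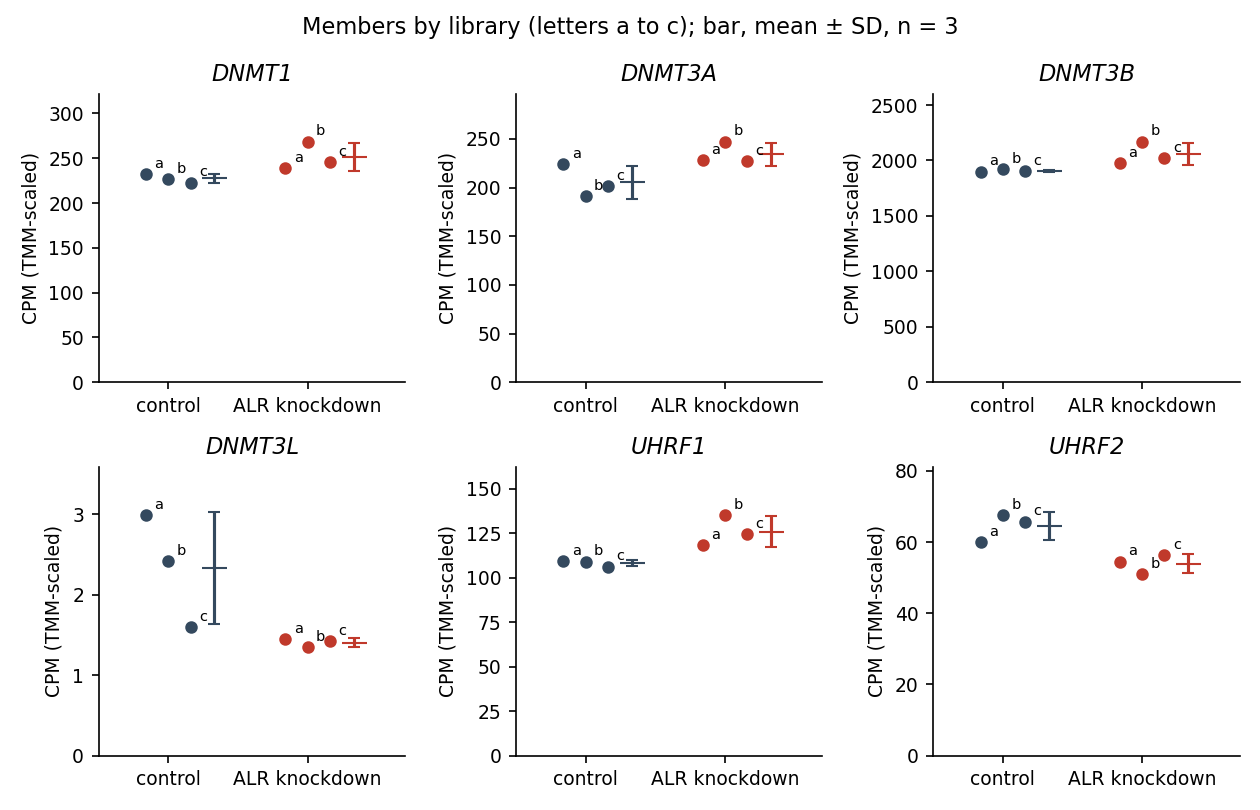
TMM-scaled CPM of each member (y axis, starting at 0) in control and ALR knockdown libraries, with a point per library (letters a to c) and a bar for the mean ± SD of 3 libraries. The 2 groups separate in all 6 panels, by the narrowest margin relative to the level in DNMT3A (knockdown from 227, control up to 224 CPM), and knockdown library b is the highest in DNMT1, DNMT3A, DNMT3B and UHRF1.

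The maintenance pair came first. DNMT1 (ENSG00000130816.15; GRCh38 chromosome 19, 10133345 to 10231286, minus strand), the copying enzyme, stood at 239, 269 and 246 CPM under knockdown and at 233, 227 and 223 CPM under control. The knockdown libraries were all higher, but the lowest of them exceeded the highest control by less than the spread among the knockdown libraries. The means were 251 ± 15.6 and 227 ± 4.84 CPM (SD, n = 3 each). EdgeR's log2 fold change was 0.14 ± 0.07 (SE; edgeR adjusted p = 0.360). Its 95% interval ran from -0.003 to 0.29, or from 0.998-fold to 1.22-fold. Without knockdown library b the log2 fold change was 0.08 (edgeR adjusted p = 0.686).

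UHRF1 (ENSG00000276043.4; chromosome 19, 4903080 to 4962154, plus strand), which brings DNMT1 to replicated DNA, had 118, 135 and 124 CPM under knockdown. Under control it had 109, 109 and 106 CPM. The controls lay within a narrow range, and each knockdown library was above it. The means were 126 ± 8.55 and 108 ± 1.73 CPM (SD, n = 3 each). EdgeR's log2 fold change was 0.22 ± 0.07 (SE; 95% interval 0.07 to 0.36; unadjusted p = 0.00667; edgeR adjusted p = 0.168). Its unadjusted p was the 783rd smallest of all genes tested. It ran from 0.16 without knockdown library b (edgeR adjusted p = 0.433) to 0.26 without knockdown library a (0.155).

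UHRF2 (ENSG00000147854.16; chromosome 9, 6413151 to 6507054, plus strand), the paralog, went the other way. It had 54.5, 51.0 and 56.3 CPM under knockdown, and 60.02, 67.6 and 65.8 CPM under control. Control library a was the nearest to the knockdown range, and no knockdown library reached it. The means were 53.9 ± 2.67 and 64.5 ± 3.96 CPM (SD, n = 3 each). EdgeR's log2 fold change was -0.26 ± 0.07 (SE; 95% interval -0.41 to -0.10; unadjusted p = 0.00342; edgeR adjusted p = 0.128). This was the smallest p of the 6 members. Its side of the threshold depended on the procedure: UHRF2 passed with DESeq2's Wald test (adjusted p = 0.0482), with no low-count filter (edgeR adjusted p = 0.0355) and without knockdown library c (edgeR adjusted p = 0.0290). It did not pass in the other 13 of 16 alternatives, in which the adjusted p reached 0.453.

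Because UHRF1 and UHRF2 differed in opposite directions, their ratio within a library was also taken, after their values were seen and without a test. No scaling of libraries can move this ratio. A trend on GC content can, since the longest transcripts of UHRF1 and UHRF2 hold 54.6% and 44.2% GC. There were 2.17, 2.65 and 2.21 UHRF1 counts per UHRF2 count under knockdown. Under control there were 1.82, 1.61 and 1.62. The groups did not overlap, with means of 2.34 ± 0.266 and 1.68 ± 0.121 (SD, n = 3 each), and the difference of 0.658 was between 0.505 and 0.745 when each library was left out. UHRF1 per DNMT1, the ratio inside the maintenance pair, was 0.495, 0.503 and 0.506 in the knockdown libraries and 0.471, 0.480 and 0.477 in the controls.

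UHRF1 and DNMT1 transcripts follow the cell cycle, and E2F factors drive many genes of DNA replication. Windows around listed start sites of the members were therefore searched for E2F-like letters. RefSeq (GRCh38.p14) windows of 300 bases, from 250 before to 50 after a start site, were at hand for 5 of the 6 members, 12 windows in all. The letters searched were TTTCCCGC, TTTCGCGC, TTTGCCGC and TTTGGCGC, each on both strands. They occurred in 3.31% of all 35116 windows and in at least 1 window of 3.99% of 27305 genes. Among the members they occurred in the window of DNMT1, starting 2 bases before the start site, and in 2 of 3 windows of UHRF1, starting 14 and 160 bases before it. They were not in the windows of UHRF2, DNMT3A or DNMT3B searched, which says only that these letters are absent there. Of the 22 replication genes listed below, 17 had a window and 12 of these a match. DNMT3A and DNMT3B, which lay higher under knockdown as DNMT1 and UHRF1 did, thus had no match in the windows searched. The only DNMT3B window, chr20:32779602-32779901 (plus strand), lies inside the gene, whose annotated span starts at 32762385. The stretch at that annotated start was not searched, so the lack of a match in DNMT3B does not extend to it. The windows of DNMT1 and UHRF1 also lie inside their annotated spans. Whether a match goes with the direction of a value was not tested. Shown as examples are the windows of UHRF1 at chr19:4909251-4909550 (plus strand), DNMT1 at chr19:10194904-10195203 (minus strand) and UHRF2 at chr9:6412949-6413248 (plus strand). Capitals mark the match, and a match is a description of letters, not of a bound site.
UHRF1: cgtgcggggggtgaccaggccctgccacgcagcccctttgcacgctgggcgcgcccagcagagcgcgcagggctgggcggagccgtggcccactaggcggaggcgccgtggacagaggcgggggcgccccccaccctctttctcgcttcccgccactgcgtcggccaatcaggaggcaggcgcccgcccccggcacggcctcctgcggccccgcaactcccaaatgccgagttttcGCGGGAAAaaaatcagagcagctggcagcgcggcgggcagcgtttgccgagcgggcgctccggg
DNMT1: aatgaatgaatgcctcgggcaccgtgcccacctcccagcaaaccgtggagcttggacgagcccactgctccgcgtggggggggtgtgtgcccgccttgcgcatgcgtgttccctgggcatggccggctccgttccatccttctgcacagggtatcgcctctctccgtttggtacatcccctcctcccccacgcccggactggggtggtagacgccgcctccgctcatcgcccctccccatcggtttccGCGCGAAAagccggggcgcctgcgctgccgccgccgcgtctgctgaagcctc
UHRF2: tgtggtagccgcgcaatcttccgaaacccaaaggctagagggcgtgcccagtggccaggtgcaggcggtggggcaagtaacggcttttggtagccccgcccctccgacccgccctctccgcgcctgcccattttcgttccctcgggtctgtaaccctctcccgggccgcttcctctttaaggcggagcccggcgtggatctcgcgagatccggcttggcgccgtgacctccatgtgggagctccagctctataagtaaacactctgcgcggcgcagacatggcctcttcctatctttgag

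The windows hold 36, 30 and 26 CpG dinucleotides, in the same order, where the median of all windows is 14. All 3 thus lie above that median, as do the windows of DNMT3A (18 to 46) and the other windows of UHRF1 (40 and 46). The window of DNMT3B, which is not at the annotated start of the gene, lies below it, with 3. These are counts of letters, and methylation of the windows was not analysed.

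Replication genes were read beside the maintenance pair. Of 22 listed, 21 were tested, 18 lay above 0 and 3 below (54.4% of all genes tested lay above 0), with a median log2 fold change of 0.13, and 0 passed the threshold. With single libraries left out, this median ran from 0.07 without knockdown library b to 0.14 without knockdown library c. At an unadjusted p under 0.05 there were 4 of the 21, beside the 14.3% of all genes tested. The count of calls was 2 with DESeq2's Wald test, 1 with no low-count filter and 3 without knockdown library c. GINS2, a subunit of the replicative helicase, had 38.0 ± 4.90 CPM under knockdown and 29.9 ± 0.462 under control (log2 fold change 0.35 ± 0.09; edgeR adjusted p = 0.107); it passed with DESeq2 (adjusted p = 0.0385), with no low-count filter (edgeR, 0.00426) and without knockdown library c (edgeR, 0.00866). MCM2, a subunit of the same helicase, had 208 ± 14.7 against 178 ± 1.15 CPM (0.23 ± 0.07; edgeR adjusted p = 0.159), and passed with DESeq2 (adjusted p = 0.0486). UHRF1 kept a near-constant ratio to MCM2, with 0.604, 0.603 and 0.609 UHRF1 counts per MCM2 count under knockdown and 0.615, 0.608 and 0.601 under control. These groups overlapped, with means of 0.605 ± 0.00303 and 0.608 ± 0.00692 (SD, n = 3 each), and the log2 fold changes of the pair were 0.22 and 0.23. The ratio was chosen, and POLA1 is named, after the values were seen. Over the 21 replication genes tested, the log2 fold change ran from -0.21 for POLA1 to 0.35 for GINS2. The near-constant ratio thus describes MCM2 and not the list. With each library's trend on GC content removed, the log2 fold change was 0.12 for MCM2 (edgeR adjusted p = 0.608) and 0.14 for UHRF1 (edgeR, 0.504). For GINS2 it was 0.32 (edgeR adjusted p = 0.0614). The cell cycle's part in the values of UHRF1 and DNMT1 was not tested.

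**Figure D2:**
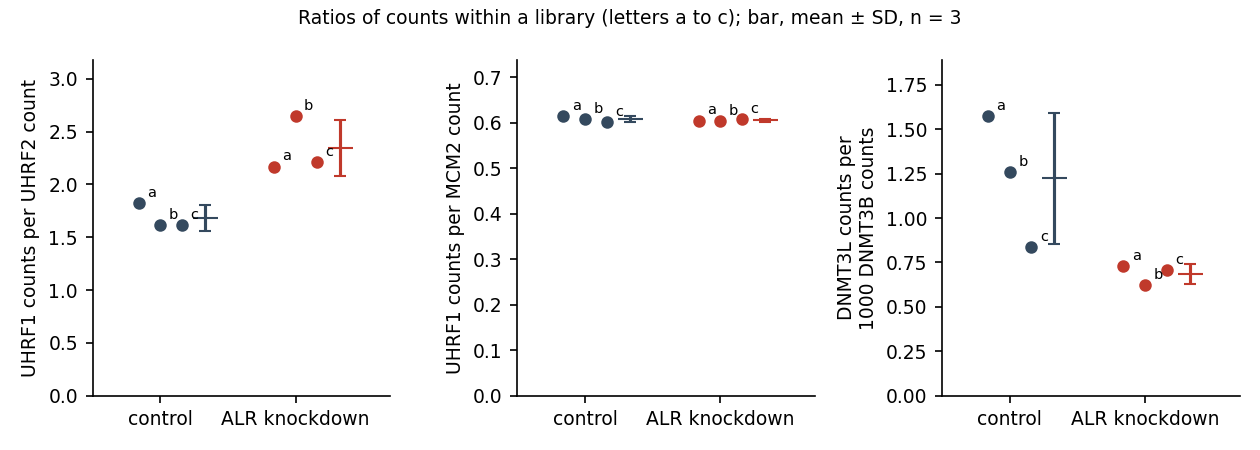
Ratios of raw counts within each library (y axes, starting at 0): UHRF1 per UHRF2, UHRF1 per MCM2 and DNMT3L per 1000 DNMT3B counts, with a point per library (letters a to c) and a bar for the mean ± SD of 3 libraries. The groups separate in the first and last panel (control library c of the last lies nearest, at 0.839), while UHRF1 per MCM2 lies between 0.601 and 0.615 in all 6 libraries.

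Of the enzymes that set new marks, DNMT3B (ENSG00000088305.18; chromosome 20, 32762385 to 32809356, plus strand) dominated. It had 1979, 2170 and 2018 CPM under knockdown and 1898, 1919 and 1904 CPM under control. The controls agreed closely, and knockdown library b was the highest. Its mean lay at the 99.9th percentile of all genes tested. The means were 2056 ± 101 and 1907 ± 10.7 CPM (SD, n = 3 each). EdgeR's log2 fold change was 0.11 ± 0.07 (SE; 95% interval -0.03 to 0.25; edgeR adjusted p = 0.488). Its depth, 51011 to 72414 counts per library, does not limit this value, and the interval leaves room for changes up to 1.19-fold. Without knockdown library b it was 0.06.

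DNMT3A (ENSG00000119772.16; chromosome 2, 25227855 to 25342590, minus strand), the other active enzyme, had 228, 247 and 227 CPM under knockdown. Under control it had 224, 191 and 201 CPM. Control library a came close to the knockdown range and the other controls did not. The means were 234 ± 11.4 and 206 ± 16.8 CPM (SD, n = 3 each). EdgeR's log2 fold change was 0.19 ± 0.07 (SE; 95% interval 0.03 to 0.35; unadjusted p = 0.0261; edgeR adjusted p = 0.281). Between fits that left out a library it ran from 0.13 without control library b to 0.26 without control library a. The table does not separate the long and short forms of DNMT3A, which start at different promoters.

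DNMT3L (ENSG00000142182.8; chromosome 21, 44246339 to 44262216, minus strand), the stimulating partner, was near the floor of the assay, with 41, 45 and 36 counts under knockdown and 85, 75 and 58 under control. On the CPM scale this was 1.45, 1.35 and 1.42 under knockdown and 2.99, 2.42 and 1.597 under control. The knockdown libraries lay close together, while the controls spread over nearly the whole gap, and control library c almost met them. The means were 1.41 ± 0.0510 and 2.33 ± 0.700 CPM (SD, n = 3 each). EdgeR's log2 fold change was -0.72 ± 0.27 (SE; 95% interval -1.32 to -0.13; unadjusted p = 0.0207; edgeR adjusted p = 0.258). Dropping control library a moved it to -0.50, and dropping control library c to -0.94. This was the largest fold change of the 6 members and the least precise. Counting alone gives a coefficient of variation of 13.3% at its mean count. The control libraries spread beyond that, with an SD of 0.700 on a mean of 2.33 CPM. The naive markers, among which DNMT3L is often counted, had 7 of 13 tested genes above 0, a median of 0.06 (-0.01 without knockdown library b) and 0 calls.

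Levels can be compared between genes only per length, and here only roughly, since the reads' share in introns is unknown. Per kilobase of annotated exon (GENCODE 29, all exons merged), DNMT3B had 410 to 469 CPM over the 6 libraries. DNMT1 had 22.8 to 27.4, UHRF1 20.6 to 26.3 and DNMT3A 15.9 to 20.6 CPM per kilobase, of which the first pair of ranges overlap and the highest DNMT3A value ended just below the lowest of UHRF1. UHRF2 followed with 5.14 to 6.82 and DNMT3L with 0.725 to 1.61 CPM per kilobase. Per kilobase of whole gene span the order of the means was the same except that DNMT3A and UHRF1 came closer: 42.2 for DNMT3B, 2.44 for DNMT1, 1.98 for UHRF1, 1.92 for DNMT3A, 0.630 for UHRF2 and 0.118 for DNMT3L. On both scales DNMT3B stood apart at the top and DNMT3L at the bottom, in knockdown and control libraries alike.

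In direction, 5 of the 6 members followed a trend on base composition, though for UHRF2 the trend was small beside its value. GC content of the longest transcript was 53.7% to 55.4% for DNMT1, DNMT3A, DNMT3B and UHRF1, 59.6% for DNMT3L and 44.2% for UHRF2. Over tested genes with a GC value, the median log2 fold change climbed from -0.05 in the fifth of lowest GC to 0.11 in the fifth of highest GC, and it was 0.07 in the fifth that holds the 4 higher members and -0.02 in that of UHRF2. DNMT3L, in the fifth of highest GC, lay against this trend. When each library's trend on GC was removed, the log2 fold change was 0.06 for DNMT1, 0.12 for DNMT3A, 0.04 for DNMT3B and 0.14 for UHRF1. It was -0.24 for UHRF2 and -0.83 for DNMT3L. So the 4 higher members kept their direction at a smaller size, by more than 1.5 times each, while UHRF2 and DNMT3L stayed near their values. Removal of the trend on gene length gave 0.07 for DNMT3B, and 0.14, 0.19 and 0.19 for DNMT1, DNMT3A and UHRF1.

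**Figure D3:**
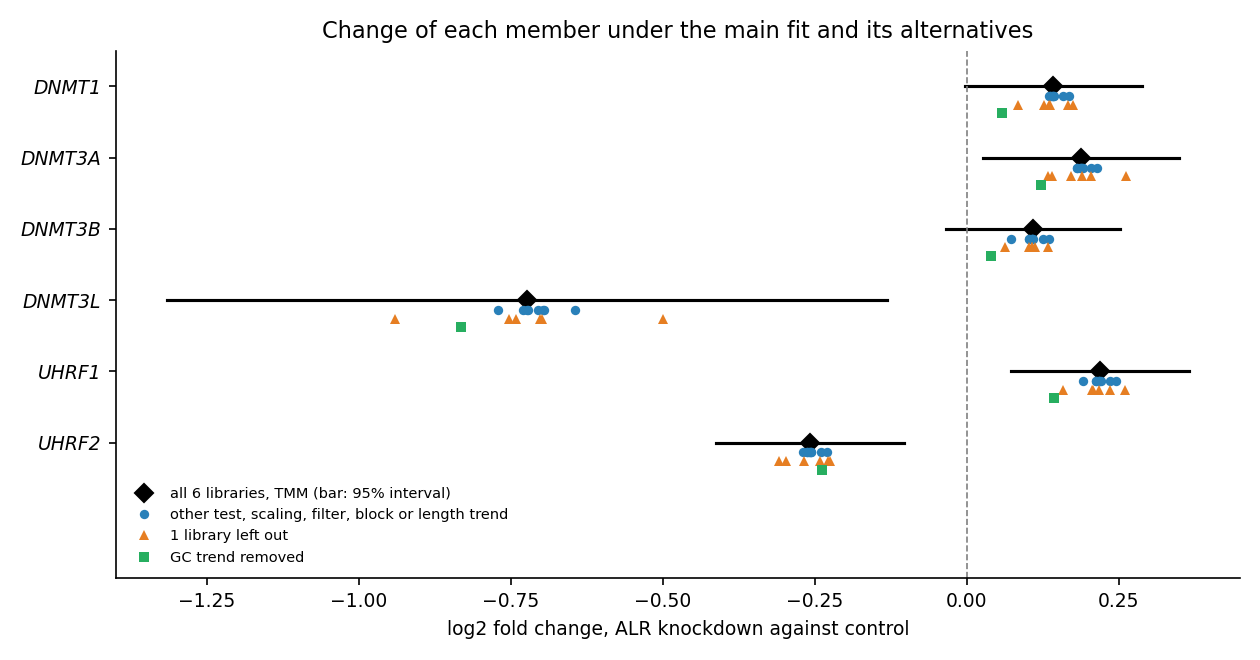
Log2 fold change of each member, ALR knockdown against control (x axis), from the fit on all 6 libraries with its 95% interval (black) and from each alternative (coloured points). No point crosses 0, and for DNMT1, DNMT3A, DNMT3B and UHRF1 the fit with the GC trend removed gives the value nearest to 0.

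The wider machinery was read from lists, in each of which the count of calls stands beside the 0.786% of all genes tested. With single libraries left out, the medians of the maintenance partners, demethylation genes, methyl-CpG readers and methyl donor cycle all changed sign, within -0.06 to 0.05. Maintenance partners, which bind DNMT1 or UHRF1 or work beside them on replicated DNA, had 9 of 14 tested genes above 0, a median log2 fold change of 0.01 and 0 calls. LIG1, the ligase that joins Okazaki fragments and recruits UHRF1, had 70.3 ± 3.08 CPM under knockdown and 62.2 ± 1.55 under control (edgeR adjusted p = 0.245). HDAC1, a deacetylase that binds DNMT1, had 122 ± 3.65 and 111 ± 3.03 CPM (edgeR adjusted p = 0.325).

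Factors that steer methylation to or away from regions had 10 of 16 tested genes above 0, a median of 0.05 and 0 calls. FBXL19, a reader of unmethylated CpG, had 74.8 ± 8.31 and 62.1 ± 3.61 CPM (edgeR adjusted p = 0.181; 0.0211 with no low-count filter), and KDM1A, a histone demethylase that supports DNMT1, had 9.58 ± 1.69 and 7.53 ± 0.954 CPM (edgeR adjusted p = 0.311). DPPA3, which keeps UHRF1 off chromatin, was named after its values were seen: it had 20.3 ± 1.73 and 18.8 ± 0.733 CPM (edgeR adjusted p = 0.589).

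Of 15 demethylation genes tested, 6 lay above 0, with a median of -0.02, and 1 passed the threshold. PROSER1, which works with the TET enzymes and OGT, had 93.0 ± 1.58 CPM under knockdown and 163 ± 6.52 CPM under control, and fell by 0.81 ± 0.06 on the log2 scale (edgeR adjusted p = 0.000111), and it was called under each of the 16 alternatives. TET1, the main enzyme that oxidises methylated cytosine in pluripotent cells and named after its values were seen, had 499 ± 26.2 and 480 ± 26.8 CPM (edgeR adjusted p = 0.761). The list of methyl-CpG readers, which also holds other members of their protein families, had 4 of 10 tested genes above 0, a median of -0.007 and 0 calls. MBD5 had 106 ± 21.4 and 134 ± 8.47 CPM, which is -0.34 on the log2 scale (edgeR adjusted p = 0.205). It passed with DESeq2 (adjusted p = 0.0495), with no low-count filter (edgeR, 0.000929) and without knockdown library c (-0.54; edgeR, 0.00198). MBD3 had 24.3 ± 2.82 and 21.7 ± 1.12 CPM (edgeR adjusted p = 0.474).

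The cycle that makes and recycles the methyl donor had 7 of 13 tested genes above 0, a median of 0.02 and 0 calls (1 without knockdown library c). SHMT2, the mitochondrial serine hydroxymethyltransferase, had 81.7 ± 0.343 CPM under knockdown and 70.7 ± 5.29 under control (edgeR adjusted p = 0.199), and MTHFD1, a folate enzyme, had 77.3 ± 4.28 and 67.7 ± 2.51 CPM (edgeR adjusted p = 0.231). NNMT and BHMT were at 0 in every library, and are named for that after their values were seen. The genes UHRF1BP1 and UHRF1BP1L, named for binding to UHRF1, and TRDMT1, a tRNA methyltransferase of the DNMT fold, had 1 of 3 above 0 and 0 calls. UHRF1BP1 had 88.3 ± 7.98 and 90.1 ± 1.90 CPM, and UHRF1BP1L 94.5 ± 3.996 and 101 ± 5.86 CPM.

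Germline genes that DNA methylation is known to keep silent in somatic cells were read as a list outside the machinery. DNA methylation itself was not analysed here, and these are pluripotent cells. Of 20 listed, 11 were tested, 7 lay above 0, with a median of 0.08, and 1 passed. The median had no stable sign: it was -0.21 without knockdown library a, -0.10 without control library b, 0.27 without knockdown library c, 0.25 and 0.27 without control libraries a and c, 0.32 with no low-count filter and -0.02 with a mean count of at least 50. DAZL, a germ cell RNA-binding protein, had 10.5, 9.17 and 11.0 CPM under knockdown and 14.9, 17.8 and 16.8 CPM under control. It fell by 0.69 ± 0.11 on the log2 scale (edgeR adjusted p = 0.0120) and passed in 12 of 16 alternatives. The call was lost without knockdown library b (edgeR adjusted p = 0.0547) and without control library a (0.0636), b (0.0973) or c (0.115). SYCP3 and SYCE1, named after their values were seen, were at 0 in every library.

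**Figure D4:**
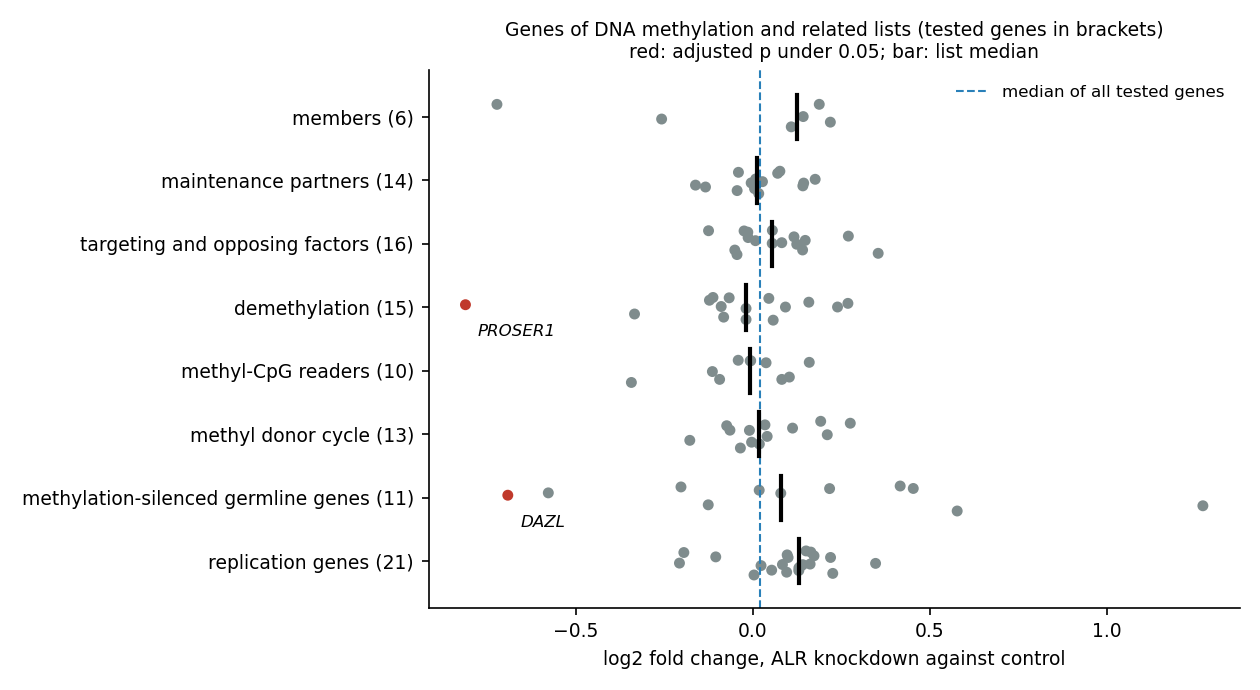
Log2 fold change, ALR knockdown against control (x axis), of the tested genes of each list (a point per gene, spread vertically for legibility). Black bars mark list medians and red points adjusted p under 0.05: PROSER1 and DAZL, while none of the 6 members or of the 21 replication genes is red.

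The genes most like each member across the 6 libraries were found by Pearson's r of log2 CPM among 15139 genes of mean count at least 50. They were SETD6 and MED22 for DNMT1 (r = 0.996 and 0.995), PTPRF and AARS for UHRF1 (0.997 and 0.997), and PPM1B and SENP6 for UHRF2 (0.996 and 0.995). For DNMT3A they were BSG and LSM4 (0.997 and 0.996), for DNMT3B SPR and TACC3 (0.997 and 0.994), and for DNMT3L ZNF600 and VEZF1 (0.992 and 0.983). With 6 libraries that share group and base composition trends, the values are a description only, and none of these 12 genes passed the threshold between the groups.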

How the data were processed

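RNA sequencing of 6 H9 libraries was used. The authors deposited raw read counts per gene symbol, whole numbers with differing column totals. The submitters' processing notes name Trimmomatic 0.39, STAR 2.7.8a, featureCounts, Subread 2.14.2 and hg38; the annotation, strand setting and treatment of introns are not given in the sources used here. The library kit was directional, per the labels' protocols.

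Genes were kept by filterByExpr, scaled by TMM and tested with edgeR 4.0.16 (R 4.3.3; quasi-likelihood, group as the only term, two-sided), with Benjamini-Hochberg adjustment over all 19721 genes tested and a threshold of 0.05. Intervals are 95%; SE came from the F statistic. Positions, exon lengths and GC came from GENCODE 29 (32773 of 53719 rows matched). Alternatives were other scalings, DESeq2 1.42.0, limma-voom (limma 3.58.1), other filters, a replicate block, removal of length or GC trends (splines, 5 degrees of freedom), and each library left out. The procedure was tested on simulated data. Replicates of a group differed by more than sampling noise (chi-square per degree of freedom 9.05 to 21.8).

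The members and lists were chosen with earlier results of these data known. Named were all 6 members and, per list, genes past the threshold, otherwise the 2 of smallest p; of marker lists, the 3 of highest mean and genes at 0; any other is marked as a later choice in the text. The list of primed-state markers is not reported here.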

Additional observations from a re-analysis of the deposited data

How the results depend on the processing

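The direction of all 6 members held in every alternative that gave a value (16 each; for DNMT3L, DESeq2 gave a log2 fold change of -0.73 but no adjusted p). Only UHRF2 changed its side of the threshold: its log2 fold change was -0.26 with DESeq2's Wald test and -0.26 with no low-count filter, both past the threshold, and it ran from -0.31 to -0.23 when each library was left out. Of the other genes named, MBD5 and GINS2 passed in 3 alternatives each and FBXL19 and MCM2 in 1 each, DAZL lost its call in 4, and UHRF1BP1 changed sign, running from -0.11 to 0.00222 when each library was left out. The number of genes called across the table (155; 27 higher, 128 lower) depended on the procedure. It was 530 with DESeq2's Wald test (144 higher, 386 lower), 1064 with no low-count filter (403 and 661), 242 with the length trend removed (62 higher) and 237 with the GC trend removed (44 and 193). Scaling by library size alone gave 56 higher genes and upper-quartile scaling 45. Leaving out each library gave 26 to 1309 calls (0 to 197 higher, 25 to 1112 lower), the most without knockdown library c and the fewest without control library a. The cause was not tested. With the replicate block, 393 genes were called (73 higher, 320 lower), but the letters did not pair the libraries (correlation of deviations 1.23e-05, 0.116 and -0.0251 for a, b and c), and no member's call changed. DNMT3L is limited by depth, at 36 to 85 counts per library, and by the spread of its control libraries.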

Other observations

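The GC trend beside the members was not shared evenly by the libraries. Relative to each gene's mean over the 6 libraries, the median of the fifth of tested genes with the highest GC was -0.02, 0.12 and 0.07 on the log2 scale under knockdown (libraries a, b, c) and 0.02, -0.09 and -0.09 under control. Libraries a of both groups thus lay nearest to 0, and knockdown library b, the highest in DNMT1, DNMT3A, DNMT3B and UHRF1, also had the highest value here. In the fifth of lowest GC the values were 0.0008, -0.04 and -0.03 in knockdown and -0.02, 0.05 and 0.04 in control libraries. Of the genes called, 15 of 21 in the fifth of highest GC were higher in knockdown libraries, and 0 of 31 in that of lowest GC.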
